A study of Mus musculus with 48 samples.

Results

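The transcripts of the mitochondrial genome were examined in mouse hippocampus: every gene of the count table whose mouse symbol begins with mt-. The rule found 37 genes among the 57126 gene identifiers, namely 13 protein-coding, 2 ribosomal RNA (rRNA) and 22 transfer RNA (tRNA) genes. The rule itself used no expression value, but it was chosen with earlier results of these data known. RNA was sequenced from the hippocampus of 48 mice of the outbred CD-1 stock aged 2 months. The dams' drinking water held 100 ppm of lead (Pb), 2 g/L of manganese (Mn), the pair of them (Pb+Mn) or no added metal (control), starting 2 weeks before mating and ending when pups were weaned at postnatal day 21, a span of 8 weeks. The 8 groups were male control, male Mn, male Pb, male Pb+Mn and the same exposures in females, each of 6 animals. The offspring were exposed through their dams, litters are not named in the labels, and p-values therefore measure the spread between animals.

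Mitochondria keep a small circular genome that codes for core subunits of the respiratory chain and ATP synthase, and for the rRNAs and tRNAs with which the organelle translates them. Both strands are transcribed as long precursors from the control region, and tRNAs that lie between the other genes are cut out to release them. The enzymes that copy, transcribe, process and translate this genome are made by nuclear genes, and neurons of the hippocampus are known for a high demand for mitochondrial ATP.

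Sequences of 5 members are shown first, because they bear on which members can be measured here. Pieces of the mitochondrial genome were also copied into nuclear chromosomes during evolution, and a read from such a stretch cannot be placed by its letters alone. The first 60 bases of mt-Co2 (subunit 2 of cytochrome c oxidase) and of the nuclear pseudogene Gm28661 held the same letters, and the 60 bases of mt-Co1 (subunit 1 of that enzyme) from position 1054 of its transcript differed from the start of the pseudogene Gm29216 at 6 positions, given in capitals. The tRNA genes mt-Tp (proline), mt-Tm (methionine) and mt-Tt (threonine) are given whole with the anticodon in capitals, since mt-Tp had the highest level of all 22 tRNAs, mt-Tm the highest of those on the heavy-strand transcript, and mt-Tt is the neighbour of mt-Tp on the opposite strand. The sequences are written 5′ to 3′ as transcribed, from the GENCODE M21 transcripts (GRCm38).
mt-Co2: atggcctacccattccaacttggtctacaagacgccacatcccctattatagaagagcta
Gm28661: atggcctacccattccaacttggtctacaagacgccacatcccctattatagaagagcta
mt-Co1: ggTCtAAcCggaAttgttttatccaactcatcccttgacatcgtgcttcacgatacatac
Gm29216: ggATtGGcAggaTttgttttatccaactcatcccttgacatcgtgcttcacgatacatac
mt-Tp: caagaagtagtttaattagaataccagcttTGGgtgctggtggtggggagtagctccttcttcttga
mt-Tm: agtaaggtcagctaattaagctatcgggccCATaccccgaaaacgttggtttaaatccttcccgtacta
mt-Tt: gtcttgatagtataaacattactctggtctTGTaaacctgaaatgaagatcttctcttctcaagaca
The tRNA genes were 59 to 75 bases long, all shorter than the 100-base reads. A full-length read could not lie within a tRNA gene, so tRNA counts came from reads that were trimmed or that ran past the gene's ends.

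The depth was 6.27 to 27.6 M counts per library (median 15.1 M, M for 1e6). Summed markers of hippocampal neurons (5 genes) were present in each of the 48 libraries, at 1831 to 3135 CPM (counts per M, on totals scaled by TMM, edgeR's correction for library composition). As a sign of RNA quality, each library's log2 CPM, less the gene's mean, was regressed on log2 transcript length across 11469 nuclear protein-coding genes; a negative slope (length trend) means relatively fewer counts for long transcripts. It stood at -0.416 in male Pb 6, -0.377 in female Pb 2 and -0.288 in female control 1, and between -0.175 and 0.165 in the other 45 libraries. Counts of members in the comparisons that use these 3 libraries are given with and without them where they differ. Tissue RNA holds many cell types, so fewer cells of a type and less RNA per cell cannot be told apart.

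The mitochondrial genes took 5.57% ± 1.21 of all counts (SD, n = 48), with 3.50% in the lowest library and 9.50% in the highest. Protein-coding genes held 77.1% of all mitochondrial counts, the 2 rRNA genes 22.7% and the 22 tRNA genes 0.184%. Of the 37 genes, 23 averaged at least 1 CPM over the 48 libraries: 10 protein-coding genes, both rRNAs and 11 tRNAs. The 14 genes under 1 CPM were mt-Atp8, mt-Nd3 and mt-Nd4l among the protein-coding genes and mt-Tf, mt-Tv, mt-Ts1, mt-Td, mt-Tk, mt-Tg, mt-Tr, mt-Th, mt-Ts2, mt-Tl2 and mt-Tt among the tRNAs. No counts at all were recorded for mt-Tk (lysine) and mt-Tg (glycine).

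The protein-coding genes formed 2 separate ranges of level per kilobase. mt-Co1, the catalytic subunit of cytochrome c oxidase, had the highest level of the 37 genes at 10082 ± 2125 CPM per kb (SD, n = 48). It was followed by mt-Nd1 of complex I at 7222 ± 1755 and mt-Cytb, cytochrome b of complex III, at 6969 ± 1422 CPM per kb. The complex I genes mt-Nd2 (4382 ± 1240 CPM per kb) and mt-Nd4 (2910 ± 627) came next, and mt-Nd6 (1865 ± 437) and mt-Nd5 (1738 ± 391) were last of these 7. The SDs are over the same libraries, in which the abundant genes moved together (below), so they do not measure whether 2 genes differ. The 2 rRNAs were at 5627 ± 2064 CPM per kb for mt-Rnr1, the small-subunit rRNA, and 4606 ± 1901 for mt-Rnr2, the large-subunit rRNA. Mitochondrial rRNAs carry short A tails, and the library kit captures polyadenylated RNA, so the level of an rRNA against an mRNA here is that of captured RNA.

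The other 6 protein-coding genes lay between 1.34 and 15.1 CPM per kb, so that the lowest of the 7 above was 115-fold over the highest of these, and together held 0.0583% of the protein-coding counts. They were mt-Co2 and mt-Co3 of cytochrome c oxidase (15.1 and 9.90 CPM per kb), the ATP synthase genes mt-Atp6 (7.51) and mt-Atp8 (3.77), and mt-Nd4l (2.04) and mt-Nd3 (1.34) of complex I. In the order of the genome these 6 genes and the tRNA genes between them follow one another without interruption from mt-Td to mt-Nd4l, directly after mt-Co1 and mt-Ts1 and directly before mt-Nd4. Read windows of 100 bases from mt-Co2, mt-Atp6, mt-Co3, mt-Nd3 and mt-Nd4l were found without a mismatch in annotated nuclear transcripts for 97.6% to 99.9% of all windows of each gene. The share was 60.8% for mt-Nd4, 30.8% for mt-Co1, 3.19% for mt-Nd2 and 0 for the remaining long genes, mt-Atp8 among them; mt-Atp8 lies between mt-Co2 and mt-Atp6, and nuclear sequence outside annotated transcripts was not examined.

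Most of the windows lay in 7 nuclear pseudogenes, Gm29216, Gm28661, Gm10925, Gm28437, Gm28438, Gm10222 and Gm28439, which follow one another on chromosome 1 in the order of mt-Co1, mt-Co2, mt-Atp6, mt-Co3, mt-Nd3, mt-Nd4l and mt-Nd4, all on one strand. Over the aligned bases 6 of them had 100% identity with their mitochondrial gene, and Gm29216 had 99.8% with mt-Co1. The windows of mt-Nd2 lay in another gene, Gm13339, and of mt-Co1 26.3% of all windows lay in Gm29216 and the remaining matches in other nuclear transcripts. Together the 7 held 74.6 ± 25.9 CPM (SD, n = 48). The copy of mt-Co2, Gm28661, averaged 19.2 CPM beside 10.4 CPM for mt-Co2 itself, and the copy of mt-Nd3, Gm28438, 21.99 CPM beside 0.465 CPM for mt-Nd3. The sources used here do not say how reads that match several places were counted. The levels of mt-Co2, mt-Atp6, mt-Co3, mt-Nd3 and mt-Nd4l, and in part those of mt-Nd4 and mt-Co1, are uncertain. Those of mt-Atp8 and of the tRNAs in the same stretch may be as well, since nuclear sequence outside annotated transcripts was not examined.

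**Figure D1:**
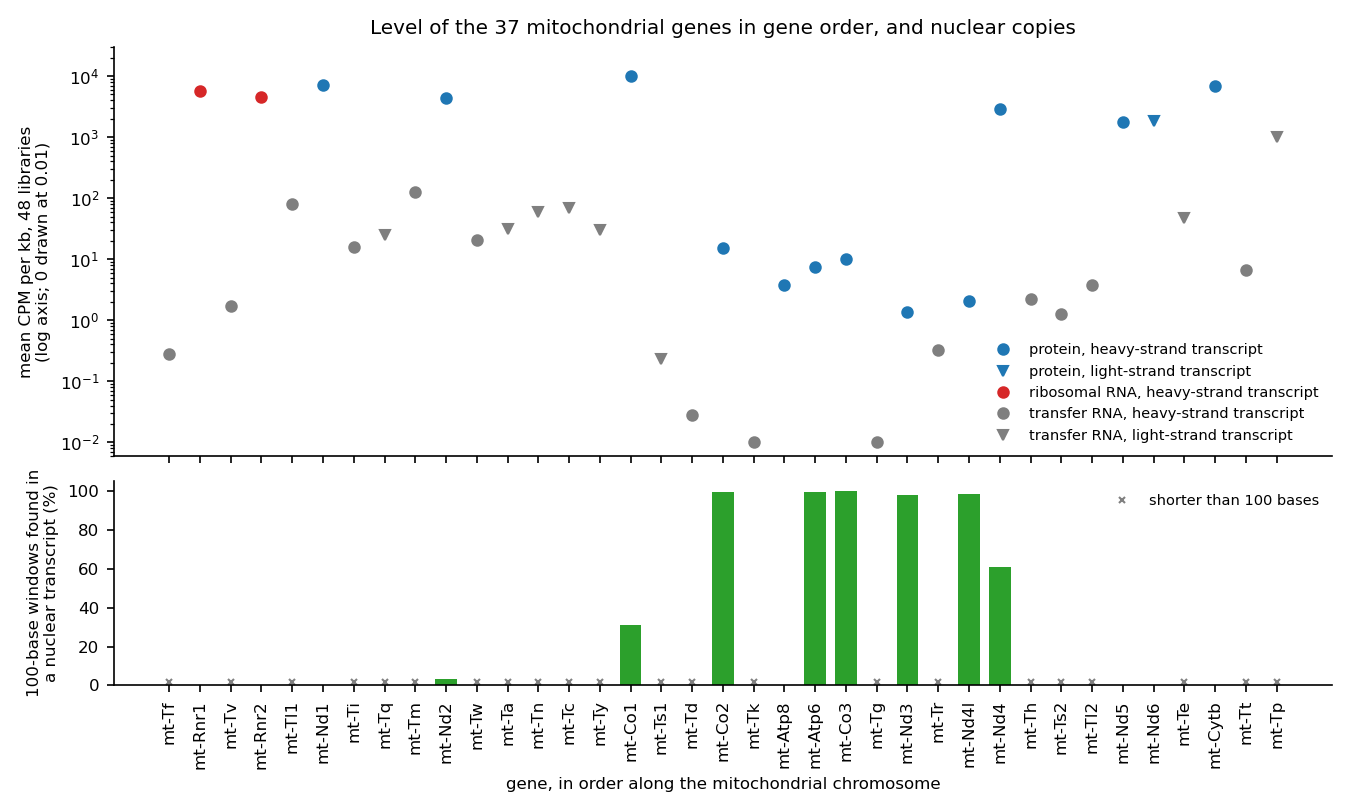
The upper panel plots the mean level of each of the 37 mitochondrial genes over 48 libraries (CPM per kb, log axis, 0 drawn at 0.01) in gene order, by class and transcript strand; the lower panel plots the share of each gene's 100-base windows found in an annotated nuclear transcript. The genes from mt-Co2 to mt-Nd4l stand between 1.34 and 15.1 CPM per kb, and 5 of those 6 have windows copied in the nucleus at 97.6% or more.

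The kit captures polyadenylated RNA, so tRNA counts, like those of the rRNAs, are of captured RNA. Mature tRNAs and precursors that span the tRNA genes cannot be told apart in them, here and below. Among the tRNAs, mt-Tp held 64.9% of the tRNA counts, with 67.4 ± 26.6 CPM (SD, n = 48, 38 to 195 CPM over the libraries). On the scale per kilobase it reached 1006 ± 398, against 126 ± 36.9 for mt-Tm, the next tRNA, and 80.7 ± 28.2 for mt-Tl1 (leucine). mt-Tp lies on the light-strand transcript together with 7 other tRNAs and mt-Nd6, and these 8 tRNAs took 82.4% of the tRNA counts. Of the 8 light-strand tRNAs 7 reached 1 CPM, and of the 14 heavy-strand tRNAs 4 did. The low heavy-strand tRNAs mt-Td, mt-Tk, mt-Tg and mt-Tr lie in the stretch from mt-Td to mt-Nd4l described above. For these, strand and place in that stretch cannot be told apart. The kit marks strand, but the sources used here do not say whether counting used it; if not, reads of a light-strand gene and of the heavy-strand precursor opposite it cannot be told apart. mt-Tp ends the genome map beside the control region, and its neighbour mt-Tt on the opposite strand stood at 6.71 ± 3.88 CPM per kb.

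The abundant members moved together from library to library. For the 9 genes above 100 CPM, the SD of log2 CPM over the 48 libraries was 0.29 to 0.49. After the mean of the 9 genes in each library was taken out, 0.09 to 0.24 remained, with mt-Cytb and mt-Co1 at the low end and mt-Rnr2 and mt-Rnr1 at the high end. Ratios within the genome varied little: mt-Co1 over mt-Cytb was 1.96 ± 0.111 and mt-Nd6, the light-strand mRNA, over mt-Nd5, its neighbour on the opposite strand, was 0.305 ± 0.0203 (ratios of counts, SD, n = 48). mt-Rnr2 over mt-Rnr1 was 1.35 ± 0.107 and ran from 1.15 to 1.66.

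The mitochondrial share of counts differed most from control in males exposed to lead. It averaged 6.97% ± 1.58 in male Pb (SD, n = 6; lowest 5.28%, median 6.77%, highest 9.50%) and 5.00% ± 0.465 in male control (4.59%, 4.92% and 5.84%), and the groups overlapped. In males it was 5.81% ± 1.35 with Mn and 5.22% ± 0.538 with Pb+Mn. Females averaged 5.28% ± 1.65 as controls, 5.79% ± 0.725 with Mn, 5.20% ± 1.15 with Pb and 5.27% ± 1.02 with Pb+Mn, and each of these ranges overlapped the others. The difference between male Pb and male control was 1.97 percentage points, 1.83 without male Pb 6, 1.46 without male Pb 1, and 1.26 when rRNA counts were left out of both sides. In females the differences from control were 0.504 points with Mn, -0.0837 with Pb and -0.0136 with Pb+Mn, and without the 3 libraries of low length trend 0.989, 0.0295 and 0.471. No test was made on the share, because it sums the members.

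The division between classes varied from library to library. The rRNA share of mitochondrial counts averaged 21.7% ± 2.06 in male control, 22.1% ± 3.61 in male Mn, 26.1% ± 4.87 with Pb and 21.9% ± 1.96 with both (SD, 6 animals per group). In females the values were 21.96% ± 2.40, 20.9% ± 1.86, 21.3% ± 5.80 and 21.5% ± 1.63 for control, Mn, Pb and Pb+Mn. The 2 highest libraries were those with the lowest length trend: male Pb 6 had an rRNA share of 34.1% and female Pb 2 of 32.7%. The share was 25.9% in female control 1, also of low length trend, and 16.4% to 28.7% in the other 45 libraries. Male Pb 1 (28.7%, trend -0.018), male Mn 2 (26.7%, -0.004) and male Pb 3 (26.1%, -0.041) lay above female control 1 without a low length trend. Without male Pb 6 the male Pb group lay 2.78 percentage points above control in place of 4.39. The part of RNA quality in this difference was not tested beyond these values. The tRNA share averaged between 0.172% and 0.209% in all 8 groups.

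**Figure D2:**
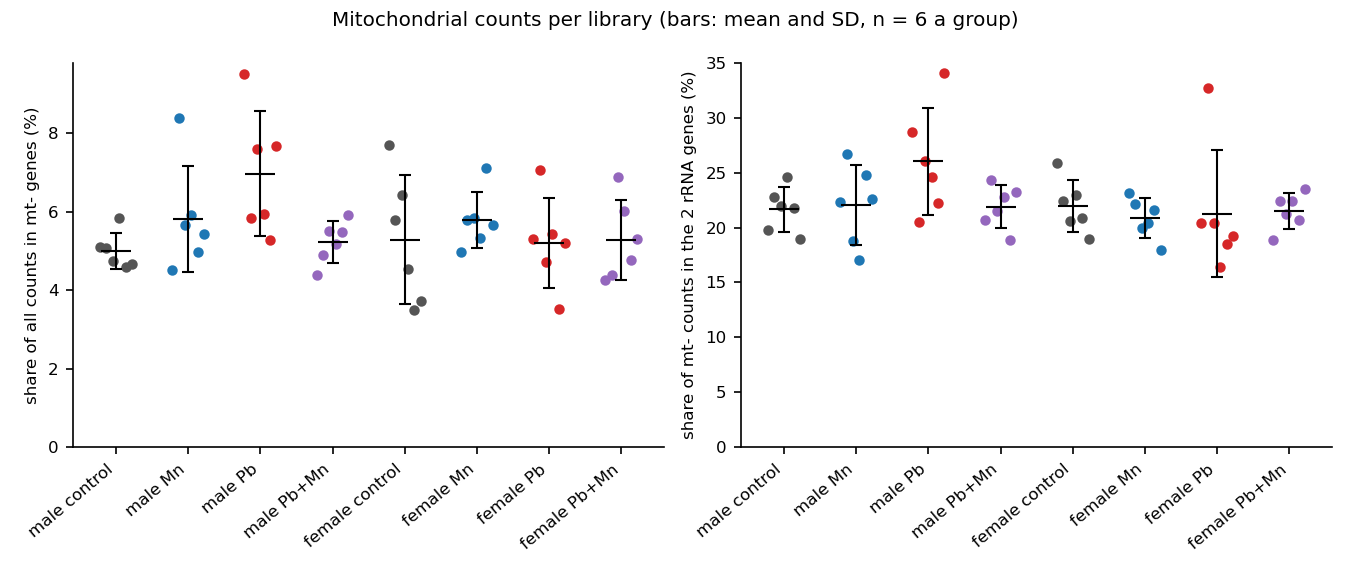
Each point is a library: the left panel plots the share of all counts in the 37 mt- genes (%) and the right panel the share of those counts in the 2 rRNA genes (%), by group, with the mean and SD (n = 6). Male Pb averages 6.97% on the left and 26.1% on the right, and both of its ranges overlap those of male control.

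**Figure D3:**
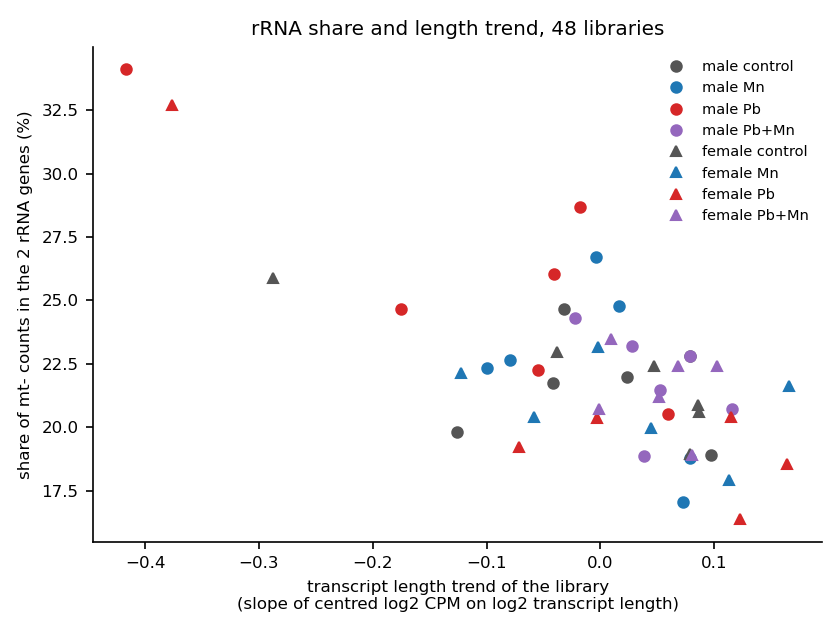
The share of mitochondrial counts in the 2 rRNA genes (%) is plotted against the transcript length trend of each of the 48 libraries (the slope defined above). Male Pb 6 and female Pb 2 sit at the upper left, with shares of 34.1% and 32.7% and trends of -0.416 and -0.377. Male Pb 1 has the next highest share, 28.7%, at a trend of -0.018.

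To see which members differed after lead in males, 6 exposed and 6 control animals were compared. All 27 members that passed the filter on low counts (13 protein-coding, 2 rRNA and 12 tRNA genes) had a positive log2 fold change, against 51.1% of the 16360 genes tested, with a median of 0.53 beside 0.01 for all genes. None passed the adjusted threshold of 0.05 (edgeR quasi-likelihood test; DESeq2 and limma voom also called 0 members; 0% of all genes passed in edgeR). At an unadjusted p under 0.05, 17 members were higher and 0 lower, where 7.65% of all genes were higher and 3.88% lower. The medians by class were 0.85 for the rRNAs, 0.64 for the tRNAs and 0.51 for the protein-coding genes, so the 3 classes pointed the same way. The members share precursors, and the abundant ones moved together between libraries. A count of members, here and below, is therefore not a count of independent results.

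mt-Rnr2, the rRNA of the large mitochondrial ribosomal subunit, was at 5170 CPM in the lowest, 5698 in the median and 7820 CPM in the highest male control. In male Pb the values were 6826, 10030 and 17414 CPM. Animals Pb 6 (17414 CPM), Pb 1 (17071) and Pb 3 (12024) stood far above each control, Pb 4 just above the highest control, and Pb 2 and Pb 5 within the control range. The log2 fold change was 0.93 ± 0.26 (SE, edgeR adjusted p = 0.4), with 6 of 6 exposed animals above the control mean. mt-Rnr1, the small-subunit rRNA, ran from 4929 to 12773 CPM (median 6612) against 3777 to 6050 (median 4343) in controls, a log2 fold change of 0.76 ± 0.25 (adjusted p = 0.4). Without the 3 libraries of low length trend mt-Rnr2 was at 0.76 and mt-Rnr1 at 0.66, and with the trend as covariate at 0.70 and 0.56.

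Of the tRNAs, mt-Tp had the smallest p of all members. Its controls ran from 42.0 to 77.1 CPM with a median of 58.1, and male Pb from 55.9 to 195 CPM with a median of 92.2. Animals Pb 3 (195 CPM), Pb 6 (128) and Pb 1 (110) lay above the controls and the others inside their range. The log2 fold change was 0.84 ± 0.23 (edgeR adjusted p = 0.4), with 5 of 6 above the control mean, and 0.57 without Pb 3. mt-Tl1 was the other tRNA of at least 1 CPM with an unadjusted p under 0.05 (0.59 ± 0.28, 7.29 ± 2.43 against 4.86 ± 1.26 CPM). The low gene mt-Tt had 0.73 ± 0.323 CPM in male Pb and 0.283 ± 0.137 in male control.

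The 13 protein-coding genes had log2 fold changes of 0.39 to 1.32, with the 7 abundant ones in a narrower range. mt-Nd5, a proton-pumping subunit of complex I, ranged from 3063 to 5247 CPM in male Pb (median 3802) and from 2458 to 3315 CPM in male control (median 2670), a log2 fold change of 0.49 ± 0.17 (edgeR adjusted p = 0.4) with 6 of 6 above the control mean. mt-Co1 was at 18904 ± 4610 against 13923 ± 1239 CPM, the highest animal being Pb 1 at 27542 CPM. mt-Cytb was at 9536 ± 2185 against 7095 ± 843 CPM and mt-Nd6 at 1186 ± 249 against 857 ± 125 CPM. Log2 fold changes of the 7 abundant protein-coding genes lay between 0.39 (mt-Nd4) and 0.52 (mt-Nd2), with SEs of 0.16 to 0.21. These genes were measured in the same animals and moved together, so the SEs do not measure differences between them.

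Only mt-Co2 and mt-Nd3 among the tested members had each exposed value above each control value, as did 0.0917% of all genes. mt-Co2 was at 7.77 to 10.7 CPM in controls and 11.3 to 18.7 CPM in male Pb (log2 fold change 0.53 ± 0.20). For mt-Nd3 the values were 0.0478 to 0.467 and 0.503 to 0.866 CPM, all under 1 CPM. Both are among the genes with near-identical nuclear copies, and those copies were higher as well: the 7 pseudogenes summed to 96.3 ± 27.7 CPM in male Pb and 60.4 ± 10.2 CPM in male control. Whether the reads came from the mitochondrial or the nuclear copy cannot be told apart.

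The count of 17 rested in part on 1 animal. Without Pb 1, which had the highest mitochondrial share, 7 members in place of 17 were higher at an unadjusted p under 0.05 (6.91% of all genes), with 27 of 27 still positive and a median of 0.41. Without the 3 libraries of low length trend 18 were higher, as were 677 of the 16360 genes. With the length trend as covariate 17 members were higher, while 3.47% of all genes were. With total counts in place of TMM scaling, 16 members were higher, and 589 of all genes were higher and 1790 lower, in place of 1251 and 635. Pb 1 and Pb 3 also held the highest sums of 4 oligodendrocyte markers, 12624 and 13135 CPM, where male Pb ranged from 5560 to 13135 and male control from 4727 to 11781 CPM. Of these 4 markers 2 had a positive fold change (1 higher at an unadjusted p under 0.05, median 0.01). Blood genes summed to 234 to 706 CPM in male Pb and 135 to 243 CPM in male control (4 of 4 tested positive, 2 at an unadjusted p under 0.05), and choroid plexus markers to 196 to 6757 against 53.6 to 4558 CPM (8 of 8 positive, median 0.59, with 0 adjusted calls in edgeR). Positive fold changes were also seen in 1 of 5 markers of hippocampal neurons (1 lower at an unadjusted p under 0.05), 4 of 4 of astrocytes, 3 of 4 of microglia, 2 of 4 of endothelium, 1 of 6 of meninges (3 lower, median -0.58) and 0 of 6 of thalamus and habenula. No marker of these lists was at 0 in every library, and the part of these tissues in the result was not tested.

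**Figure D4:**
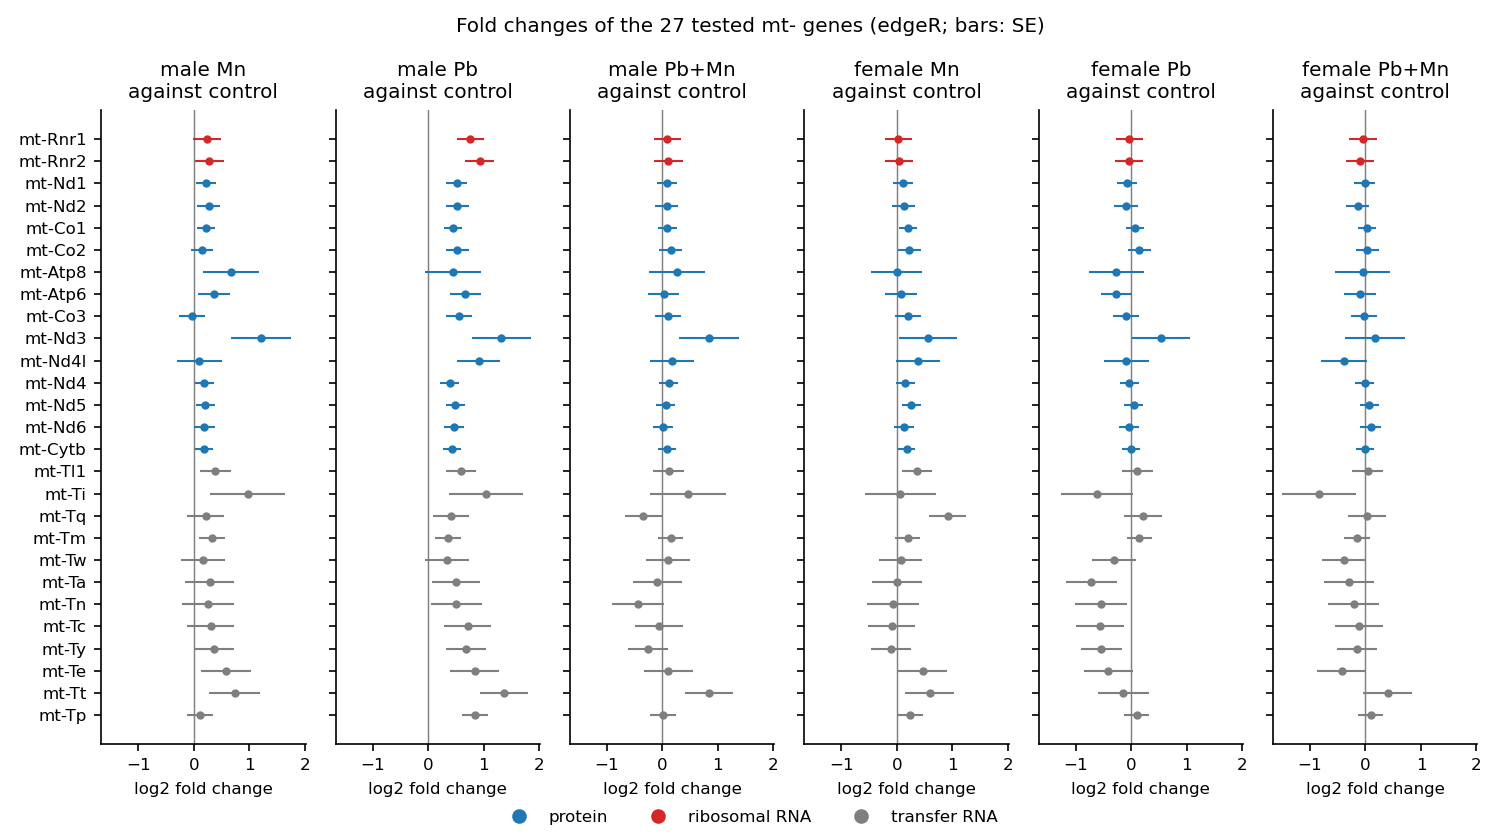
Log2 fold changes with their SE (edgeR) are plotted for the 27 tested members in the 6 comparisons of an exposure with control, coloured by class. In male Pb 27 of 27 lie right of 0, and in female Pb 8 of 27 do; no member passed the adjusted threshold in any panel.

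In females lead gave fold changes on both sides of 0. Of the 27 members 8 had a positive log2 fold change against 52.8% of all genes, the median was -0.07, and 0 members were at an unadjusted p under 0.05 in either direction, where 0.996% of all genes were higher and 1.25% lower (edgeR, 0 adjusted calls; DESeq2 and limma voom 0). mt-Rnr2 was at 4021, 5634 and 13565 CPM in the lowest, median and highest female Pb and at 3806, 6613 and 12705 CPM in female control. The highest animals were female Pb 2 and female control 1, 2 of the 3 libraries of low length trend, and the groups overlapped throughout. The members of smallest p were light-strand tRNAs: mt-Ta (alanine, -0.72 ± 0.45), mt-Ty (tyrosine, -0.54 ± 0.37), mt-Tc (cysteine, -0.55 ± 0.43) and mt-Tn (asparagine, -0.54 ± 0.47), each with an edgeR adjusted p of 1. These 4 genes follow one another on the genome. The direction of the median depended on single libraries and on the method: 20 of 27 were positive without female control 1 (median 0.14), 14 without female Pb 5 (0.05), 19 without the 3 libraries of low length trend (0.09), 14 by limma voom (0.01) and 21 by limma voom with library weights (0.15). Markers were positive in 4 of 4 of blood (median 0.45), 3 of 5 of hippocampal neurons, 3 of 8 of choroid plexus and 2 of 4 of microglia. They were positive in 1 of 4 of oligodendrocytes, 1 of 4 of endothelium, 0 of 4 of astrocytes, 0 of 6 of meninges and 0 of 6 of thalamus and habenula (median -0.87). In each list 0 markers were at an unadjusted p under 0.05, and the part of these tissues was not tested.

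The difference between the sexes in the response to lead was tested as an interaction. All 27 members had a lower fold change in females (median -0.72 beside -0.01 for all genes, of which 47.9% were positive), 9 at an unadjusted p under 0.05, where 1.15% of all genes were lower, and 0 after adjustment in edgeR, DESeq2 or limma voom. mt-Rnr2 had an interaction of -0.96 ± 0.37 and mt-Ty of -1.21 ± 0.51 (edgeR adjusted p = 0.996 for both). The count of 9 was sensitive to single animals. It was 2 without female control 1, 4 without male Pb 1, 5 without male Pb 3, 15 without male Pb 5 or female Pb 4, 17 without female control 6 and 18 without female control 5, with the median between -0.84 and -0.44 over all single omissions. In the omissions named, 158 to 276 of the 16360 genes were lower. Without the 3 libraries of low length trend the count of members was 5 (357 of the 16360 genes), with a median of -0.46.

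Averaged over both sexes, lead gave 25 of 27 positive members (49.7% of all genes) and 7 higher at an unadjusted p under 0.05 (7.51% of all genes were higher and 3.62% lower), with 0 adjusted calls in edgeR, DESeq2 and limma voom. mt-Tp (0.47 ± 0.16, edgeR adjusted p = 0.33), mt-Rnr2 (0.44 ± 0.18, 0.38), mt-Co2 (0.34 ± 0.14, 0.4) and mt-Nd5 (0.27 ± 0.12, 0.4) had the smallest p of members of at least 1 CPM. The count of 7 was 2 without male Pb 1, 3 without female control 5 or female Pb 2, 4 without female control 6, 12 without female Pb 5 and 13 without female control 1. In these fits, in the same order, 1162, 1031, 451, 1072, 1616 and 1801 of the 16360 genes were higher. The count of members was 12 without the 3 libraries of low length trend (647 of the 16360 genes) and 16 by limma voom with library weights (771). mt-Rnr2 was at 0.28 without female Pb 2.

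After manganese alone, males had 26 of 27 members with a positive fold change (48.2% of all genes), a median of 0.26, and 1 at an unadjusted p under 0.05 (0.917% of all genes were higher), namely the low gene mt-Nd3 at 0.586 ± 0.332 against 0.233 ± 0.17 CPM. The edgeR adjusted p was 1 for each member, and DESeq2 and limma voom called 0. Among members of at least 1 CPM the smallest p belonged to mt-Ti (isoleucine, 0.97 ± 0.68), mt-Tm (0.33 ± 0.23), mt-Tl1 (0.39 ± 0.28) and mt-Co1 (0.23 ± 0.16). mt-Co1 ran from 12846 to 22374 CPM with a median of 15931, and Mn 2 was the highest animal. That library also had the highest mitochondrial share of its group, 8.38% against 4.52% to 5.92% in the other 5. Without Mn 2 the median of the members was 0.12 and 0 were at an unadjusted p under 0.05 (179 of the 16360 genes were higher and 316 lower). Positive fold changes were seen in 0 of 8 markers of choroid plexus, 0 of 6 of meninges, 0 of 6 of thalamus and habenula (1 lower at an unadjusted p under 0.05, median -0.89; 134 ± 107 against 265 ± 221 CPM), 2 of 4 of blood, 3 of 4 of oligodendrocytes, 1 of 4 of astrocytes, 3 of 4 of microglia (1 higher), 1 of 4 of endothelium and 3 of 5 of hippocampal neurons. Their part in the result was not tested.

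In females manganese gave 23 of 27 positive members (49.8% of all genes), a median of 0.15 and 1 member higher at an unadjusted p under 0.05 (1.19% of all genes were higher and 1.41% lower), with 0 adjusted calls in edgeR, DESeq2 and limma voom. It was mt-Tq, the glutamine tRNA on the light-strand transcript, at 1.60, 2.30 and 4.26 CPM in the lowest, median and highest female Mn and 0.766, 1.19 and 2.22 CPM in female control. The groups overlapped, 6 of 6 exposed animals lay above the control mean, and the log2 fold change was 0.91 ± 0.34 (edgeR adjusted p = 1). mt-Nd5 (0.26 ± 0.17), mt-Tl1 (0.36 ± 0.27) and mt-Co1 (0.20 ± 0.16) followed. Without the 3 libraries of low length trend, of which female control 1 belongs here, 6 members were higher at an unadjusted p under 0.05 (419 of the 16360 genes) and the median was 0.36. The median was 0.02 without female Mn 5, and 8 were higher by limma voom with library weights (493 of the 16360 genes). Positive fold changes were seen in 0 of 4 markers of oligodendrocytes (2 lower at an unadjusted p under 0.05; 5989 ± 1777 against 7215 ± 1187 CPM), 0 of 4 of blood (1 lower; 129 ± 89.4 against 189 ± 140 CPM), 0 of 6 of thalamus and habenula (1 lower; 128 ± 78.7 against 222 ± 190 CPM), 1 of 6 of meninges, 3 of 8 of choroid plexus, 4 of 4 of astrocytes, 4 of 4 of microglia (1 higher), 3 of 4 of endothelium and 4 of 5 of hippocampal neurons. Their part in the result was not tested.

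Averaged over the sexes, manganese gave 27 of 27 positive members (49.4% of all genes) with a median of 0.19, and 3 were higher at an unadjusted p under 0.05 (1.88% of all genes were higher and 2.41% lower), with 0 calls in edgeR, DESeq2 and limma voom after adjustment. mt-Tq (0.57 ± 0.24), mt-Nd5 (0.24 ± 0.12), mt-Tl1 (0.38 ± 0.20) and mt-Co1 (0.21 ± 0.12) had the smallest p (edgeR adjusted p = 1 each). The count of 3 was 10 without female control 1, 6 without female control 3, 5 without male control 4, male Mn 1, male Mn 5, male Mn 6 or female Mn 4, and 0 without female Mn 5, where 24 of 27 were positive. In the omissions named, 280 to 440 of the 16360 genes were higher. The count of members was 11 without the 3 libraries of low length trend (484 of the 16360 genes) and 12 by limma voom with library weights (589). The sex by manganese interaction had 6 of 27 positive (52.5% of all genes; 16 without female control 1 or without the 3 libraries of low length trend, and 3 without female Mn 5) and 0 at an unadjusted p under 0.05, with mt-Tq at 0.70 ± 0.47 and mt-Ti at -0.91 ± 0.93.

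With both metals the medians lay near 0, while single members ran from -0.44 to 0.84 in males and from -0.84 to 0.40 in females. In males 22 of 27 were positive (48.4% of all genes) with a median of 0.09, and in females 9 of 27 (49.7%) with a median of -0.05; 0 members were at an unadjusted p under 0.05 in either sex, where 0.874% of all genes were higher and 1.37% lower in males, and 0.85% higher and 0.611% lower in females, and edgeR, DESeq2 and limma voom called 0. The members of smallest p in males were mt-Tq (-0.34 ± 0.34), mt-Tn (-0.44 ± 0.47), mt-Co2 (0.15 ± 0.20) and mt-Ty (-0.26 ± 0.37). In females they were mt-Ti (-0.84 ± 0.66), mt-Tw (tryptophan, -0.39 ± 0.39), mt-Te (glutamate, -0.43 ± 0.44) and mt-Tm (-0.16 ± 0.23). All had an edgeR adjusted p of 1. In females the number of positive members ran from 1 (without female control 5) to 19 (without female control 1 or female Pb+Mn 1); it was 19 without the 3 libraries of low length trend, 14 by limma voom and 18 by limma voom with library weights. Without female control 1, where mt-Te stood at 10.6 CPM, mt-Te was at 0.21 in place of -0.43. Averaged over the sexes, 15 of 27 were positive (48.5% of all genes) and 0 were at an unadjusted p under 0.05 (1.91% of all genes were higher and 2.15% lower), with mt-Tn at -0.33 ± 0.33, mt-Ty at -0.20 ± 0.26, mt-Tq at -0.16 ± 0.24 and mt-Co2 at 0.09 ± 0.14. That count ran from 4 (without female control 6) to 19 (without female control 1 or female Pb+Mn 1), and was 19 without the 3 libraries of low length trend. The sex by Pb+Mn interaction had 6 of 27 positive (52.4% of all genes; 19 without female control 1 or without the 3 libraries of low length trend) and 0 at an unadjusted p under 0.05, with mt-Ti at -1.30 ± 0.95 and mt-Tm at -0.31 ± 0.32.

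Adding manganese to lead in males was compared directly, Pb+Mn against Pb; this comparison uses the same male Pb animals as the one above. All 27 members were lower in Pb+Mn (48.1% of all genes were positive), with a median of -0.48. At an unadjusted p under 0.05, 13 were lower and 0 higher, where 13.9% of all genes were lower and 8.38% higher, and none passed after adjustment in edgeR. mt-Tp ran from 42.6 to 68.3 CPM in Pb+Mn (median 62.4) against 55.9 to 195 CPM in Pb, a log2 fold change of -0.84 ± 0.23 with an edgeR adjusted p of 0.11. mt-Rnr2 ran from 5226 to 7873 CPM (median 6574) against 6826 to 17414 CPM, at -0.82 ± 0.26 with an edgeR adjusted p of 0.11. In both genes 6 of 6 Pb+Mn animals lay below the Pb mean and the groups overlapped.

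These 2 members sat close to the threshold. DESeq2 called both (adjusted p = 0.045 for mt-Tp and 0.05 for mt-Rnr2, unrounded just under the threshold; 1.99% of all genes were called), limma voom called neither, and limma voom with library weights called mt-Tp alone (0.039; 2.88% of all genes). In edgeR both passed without male Pb 2 (0.043 and 0.044; 5.37% of all genes) and without male Pb 5 (0.035 and 0.04; 6.36%). With the length trend as covariate the adjusted p was 0.79 for both, with mt-Tp at -0.72 and mt-Rnr2 at -0.51, and over all alternatives it ran from 0.035 to 0.79. The count of 13 was 3 without male Pb 1 and 6 without male Pb+Mn 2, where 13.4% and 13.2% of all genes were lower. Without the 3 libraries of low length trend the count was 11, and 1220 of the 16360 genes were lower. The Pb animals had a mean length trend of -0.108 ± 0.169 and the Pb+Mn animals one of 0.0483 ± 0.0468 (SD, n = 6 per group), and its part in these calls was not tested further. Meninges markers were positive in 5 of 6 (3 higher at an unadjusted p under 0.05, median 0.59), hippocampal neurons in 4 of 5 (1 higher), blood in 2 of 4 (1 higher), choroid plexus in 3 of 8, microglia in 2 of 4 (1 lower), oligodendrocytes in 1 of 4 (1 lower), endothelium in 1 of 4, and astrocytes (0 of 4) and thalamus and habenula (0 of 6) in none. Oligodendrocyte markers summed to 6847 ± 1394 CPM in Pb+Mn and 9338 ± 3108 CPM in Pb, blood genes to 404 ± 226 and 411 ± 187 CPM, and meninges markers to 85.0 ± 11.6 and 64.1 ± 17.5 CPM. Their part in the result was not tested. With total counts in place of TMM scaling 12 members were lower, and 2107 of all genes were higher and 1606 lower, in place of 1371 and 2272.

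**Figure D5:**
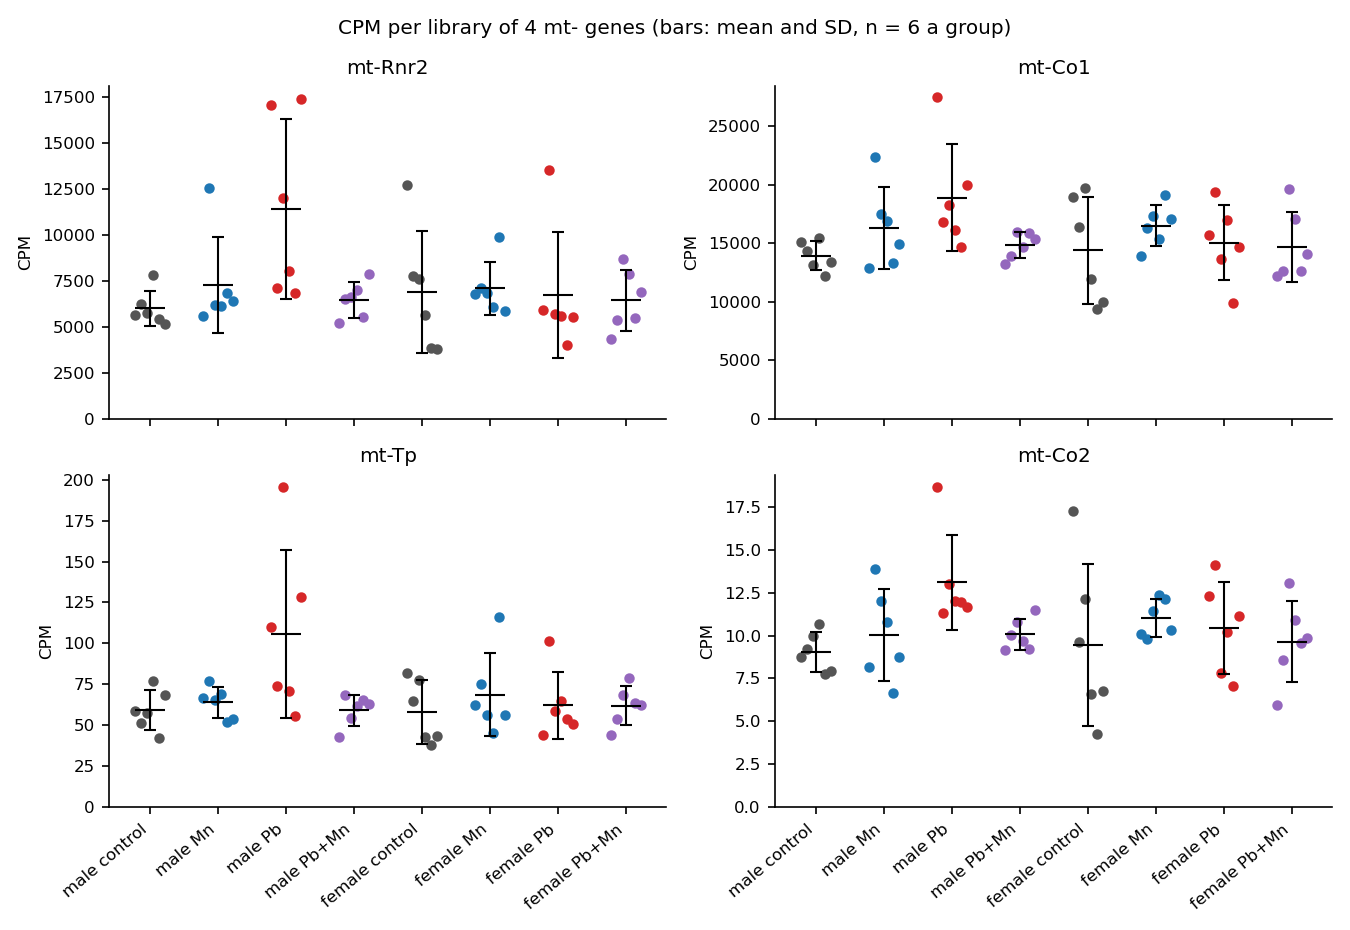
CPM per library is plotted by group, with the mean and SD (n = 6), for the rRNA gene mt-Rnr2, the mRNA gene mt-Co1, the tRNA gene mt-Tp and the mRNA gene mt-Co2, which has a near-identical nuclear copy. In the panel of mt-Co2 each male Pb animal lies above 11 CPM and each male control below; in the other 3 panels male Pb and male control overlap.

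The male Pb by Mn interaction, which asks whether both metals together differ from the sum of each alone, was negative in 27 of 27 members (49.3% of all genes were positive) with a median of -0.87. At an unadjusted p under 0.05, 16 were lower, where 7.78% of all genes were, and 0 passed after adjustment in edgeR, DESeq2 or limma voom. mt-Rnr2 was at -1.10 ± 0.37 and mt-Tp at -0.95 ± 0.33 (edgeR adjusted p = 0.37 for both). The count was 10 without male Pb 1 (1227 of the 16360 genes were lower) and 17 without the 3 libraries of low length trend (822). In females the interaction had 6 of 27 positive (48.3% of all genes) and 1 lower at an unadjusted p under 0.05 (1.19% of all genes), with mt-Tq at -1.10 ± 0.48 and mt-Tm at -0.51 ± 0.32 (edgeR adjusted p = 0.99 each). Without the 3 libraries of low length trend 3 were lower, as were 372 of the 16360 genes.

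Against manganese alone, Pb+Mn had 4 of 27 positive members in males (49.4% of all genes) and 0 in females (49.5%). The count was 8 in males without male Mn 2, and in females 7 without female Mn 5 and 6 without female Pb+Mn 1. In males 0 were at an unadjusted p under 0.05 (1.9% of all genes were higher and 1.91% lower), with mt-Ty at -0.62 ± 0.36 and mt-Tq at -0.56 ± 0.33. In females 2 were lower (0.77% of all genes were lower and 1.61% higher), mt-Tq at -0.89 ± 0.33 and mt-Te at -0.89 ± 0.44. There were 4 without female Pb+Mn 4 and 0 without female Mn 5, where 101 and 116 of the 16360 genes were lower. mt-Te stood at 16.9 CPM in female Mn 5, where the median of that group was 2.71 CPM. Pb+Mn against Pb in females had 12 of 27 positive (48.9% of all genes; 8 to 21 over single omissions, and 18 without the 3 libraries of low length trend) and 0 at an unadjusted p under 0.05 (1.83% of all genes were lower), with mt-Tm at -0.31 ± 0.23 and mt-Ty at 0.38 ± 0.37. After adjustment 0 members were called in these comparisons by edgeR, DESeq2 or limma voom.

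Between the control groups, 25 of 27 members were higher in females (47.7% of all genes), with a median of 0.22 and 0 at an unadjusted p under 0.05, where 0.507% of all genes were higher; 0.0428% of all genes and 0 members passed after adjustment in edgeR, and DESeq2 and limma voom called 0 members. mt-Ti (1.10 ± 0.67) and mt-Te (0.65 ± 0.45) had the smallest p. Without female control 1, and likewise without the 3 libraries of low length trend, 12 of 27 were positive and the median was -0.02.

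Nuclear genes that serve the mitochondrial genome were counted in 7 lists, for males exposed to lead. No gene of these lists passed the adjusted threshold in edgeR. Of all genes in that comparison, 51.1% were positive, 7.65% higher and 3.88% lower at an unadjusted p under 0.05. Mitoribosomal protein genes, which build the ribosome around mt-Rnr1 and mt-Rnr2, were positive in 72 of 78 (27 higher and 0 lower at an unadjusted p under 0.05), with a median of 0.29, for example Mrpl52 (0.64 ± 0.21) and Mrps18c (0.76 ± 0.26). That median was 0.02 with the length trend as covariate and 0.08 without the 3 libraries of low length trend. The list also shifted in female Pb and in both Pb+Mn groups, while female Mn lay near all genes (values without the covariate). In female Pb 62 of 78 were positive (median 0.10; 52.8% of all genes) and in female Mn 36 (-0.005; 49.8%). With Pb+Mn 4 were positive in males (-0.13; 48.4%) and 5 in females (-0.11; 49.7%). In male Pb, nuclear partners of the mitochondrially encoded subunits were positive in 17 of 23 (5 higher, 1 lower, median 0.15, and -0.04 with the covariate). Among them were Ndufb8 of complex I (0.86 ± 0.27) and Cox6c of cytochrome c oxidase (0.80 ± 0.25).

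The other 5 lists had medians near that of all genes. Genes of mtDNA maintenance were positive in 8 of 12 (1 higher, median 0.06), including the thymidine kinase Tk2 (0.23 ± 0.11) and the single-strand binding protein Ssbp1 (0.41 ± 0.25). Transcription genes were positive in 6 of 11 (0 at an unadjusted p under 0.05, median 0.02), with the elongation factor Tefm at 0.35 ± 0.25 and Tfb2m at -0.16 ± 0.11. RNA processing and tRNA maturation genes were positive in 14 of 21 (1 higher, median 0.06), with Hsd17b10, a subunit of mitochondrial RNase P, at 0.40 ± 0.18 and Trmt61b at 0.40 ± 0.25. Genes of RNA stability and decay were positive in 10 of 16 (2 higher, 1 lower, median 0.06), with the RNA-binding partner gene Slirp at 0.74 ± 0.30 and Fastkd2 at 0.48 ± 0.22. Aminoacyl-tRNA synthetases were positive in 11 of 23 (0 at an unadjusted p under 0.05, median 0.00), with Wars2 at -0.26 ± 0.14 and Ears2 at -0.25 ± 0.14.

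In males exposed to manganese the 7 lists held 0 genes at an unadjusted p under 0.05, and their medians lay between -0.02 and 0.05. The genes of smallest p included Mrpl35 (-0.16 ± 0.09) of the mitoribosome, Cox10 (-0.16 ± 0.10) of cytochrome c oxidase assembly, Ears2 (-0.26 ± 0.14), Tk2 (0.16 ± 0.11), Tfb2m (-0.16 ± 0.11), Mto1 (0.12 ± 0.08) and Fastkd1 (0.13 ± 0.10). Of the mitoribosomal protein genes 36 of 78 had a positive fold change, near the 48.2% of all genes in that comparison.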

How the data were processed

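The authors deposited 1 table of raw counts per gene, per the labels, for 48 libraries made with a stranded mRNA kit; its values are whole-number counts, with none of the columns unmapped. Per the submitters' processing notes the tools were Trim Galore 0.6.9, STAR 2.7.10b, featureCounts 2.0.6, limma, edgeR and R 4.4.2 with the build GRCm39; strand and multi-mapping settings are not given in the sources used here. Gene names, lengths, gene order and sequences came from GENCODE M21 (GRCm38), and no coordinates were used. Symbols were matched for 51884 of 57126 identifiers (99.5% of the counts), and 131 of these share a symbol with another.

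The members and gene lists were chosen with earlier results of these data known. All 48 libraries were fitted together with edgeR 4.0.16 (R 4.3.3; quasi-likelihood test, TMM scaling, a term per group) on the 16360 genes passing its low-count filter, in 19 comparisons, each adjusted by Benjamini-Hochberg at 0.05 over all genes tested. SEs were derived from the log2 fold change and its F statistic and are approximate. CPM used TMM-scaled totals, and log2 CPM a prior count of 2. The length trend used nuclear protein-coding genes whose log2 CPM averaged 2 or more. Full statistics were given for the members of at least 1 CPM with the smallest p in each comparison (4 against control, 2 otherwise); other members were named after their values were seen. Nuclear copies were found as exact matches of 100-base windows in annotated nuclear transcripts. The smallest chi-square per degree of freedom between libraries of 1 group was 8.90, so none was counted as a duplicate.

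Alternatives were DESeq2 1.42.0 (test and size factors), total counts, scaling on nuclear genes, limma 3.58.1 voom with and without library weights, no filter (36923 genes), only the groups compared, the length trend as covariate, the replicate number as a block and each library left out. Leaving out the 3 libraries of lowest length trend was added after seeing the data. In data simulated for male Pb against control on 16360 genes, the test called 40.3%, 68.7% and 89.4% of genes changed 1.5-fold, 2-fold and 4-fold, with 11 false calls of 143.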

Additional observations from a re-analysis of the deposited data

Results flagged for a closer look

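In 64 checks of the highest and lowest animal of each group (6 animals; the gap to the nearest animal against Dixon's 95% critical value), 9 values stood apart; chance gives this in about 1 of 20 groups. Male Mn 2 had a mitochondrial share of 8.38% where the other 5 animals had 4.52% to 5.92%, and its mt-Rnr2 level was 12558 CPM against 5585 to 6840 CPM. Female Pb 2, a library of low length trend, had an rRNA share of mitochondrial counts of 32.7% against 16.4% to 20.4%. Its mt-Rnr2 level was 13565 CPM against 4021 to 5914 CPM, and its mt-Tp level 102 CPM against 43.8 to 64.6 CPM. Male Pb 3 had a tRNA share of mitochondrial counts of 0.335% against 0.146% to 0.213%. Female Mn 5 had 9915 CPM of mt-Rnr2 against 5839 to 7092 CPM and 1407 CPM of mt-Nd6 against 830 to 1015 CPM. Male Pb 1 had 18.7 CPM of mt-Co2 against 11.3 to 13.0 CPM.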

How the results depend on the processing

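For Pb+Mn against Pb in males the number of members called was 0, 2 with DESeq2, 1 with limma voom with library weights and 0 to 2 over single omitted libraries (2 without male Pb 2 or male Pb 5); the cause was not tested. The median of the nuclear complex partners in male Pb was -0.035 with the length trend as covariate. mt-Te in female Pb+Mn ran from -0.69 (without female Pb+Mn 3) to 0.21 (without female control 1) over single omitted libraries, and was at 0.20 without the 3 libraries of lowest length trend, against -0.43 in all libraries; the cause was not tested. The 56 results of members given with fold change, SE and p otherwise kept their direction and side of the threshold in 931 omissions of a library and 600 other settings, and passed the threshold in 4 and 3. With the replicate number as a block, male Pb had 17 members higher at an unadjusted p under 0.05 (1003 of the 16360 genes) and mt-Tp at 0.79. Pb+Mn against Pb in males then had 0 calls and 9 members lower (2066 of the 16360 genes). Mean correlations of same-numbered animals were -0.114 to 0.161 over the pairs of groups. The highest was female Mn with female Pb, where other pairs averaged -0.032 and same-numbered pairs ran from -0.150 to 0.493. The labels do not say whether animals of 1 number share a litter or batch, and these correlations cannot decide it. Depth limits the low tRNAs: mt-Te had 7 to 187 counts in the female libraries, against 330 to 3088 counts of mt-Tp over all libraries. Litters limit what the p-values mean, and multi-mapped reads and strand limit what the levels mean.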
